A study of Mus musculus with 2 samples.

Results

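Genes of the cornified envelope and of late epidermal differentiation were examined on 2 arrays, 1 labelled MED1-null (the null-labelled array in what follows) and 1 control. The members were the probe sets, groups of short probes summarised as 1 signal, whose only gene symbol begins with Sprr or Lce and a digit or is among 18 listed names. By this rule 50 of 45101 probe sets were members, and they stand for 40 of 18193 genes. Flg2 and Crnn of the listed names were not analysed here, and 3 probe sets shared by several Sprr2a genes were left out. The null-labelled array carried RNA of a primary keratinocyte culture from newborn C57BL/6 mice with K5Cre and floxed MED1 alleles (MED1epi-/-), in which the keratin 5 promoter drives Cre recombinase. The control array carried RNA of a keratinocyte culture from newborn C57BL/6 mice that the sample's title calls MED1flox/flox and its source wild-type. Both cultures were grown from epidermis on type I collagen. MED1 belongs to Mediator, a complex through which transcription factors reach RNA polymerase II, and the comparison asked how keratinocytes labelled as lacking it differ from control keratinocytes. How many mice gave each culture is not given in the sources used here. With 1 array per group there is no replicate check, no test between groups and no p-value, and each ratio below describes these 2 arrays.

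As a keratinocyte leaves the basal layer and moves outward, it builds a cornified envelope, a protein shell laid down beneath the plasma membrane that replaces it in the dead outer cell. The plakins envoplakin and periplakin and the protein involucrin form an early scaffold, onto which transglutaminases cross-link loricrin, small proline-rich (SPRR) proteins and late cornified envelope (LCE) proteins. Filaggrin and related S100-fused proteins bundle keratin or reinforce the envelope, and many of these genes lie side by side on mouse chromosome 3 in the epidermal differentiation complex.

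The targeted gene, Med1, read higher on the null-labelled array. Its brightest probe set gave 1039 there, against 462.7 on the control array, and all 6 measured Med1 probe sets went that way, while the other of the 7 was below the signal floor on both arrays. Which part of the gene was deleted is not stated in the labels, and a probe set outside that part checks nothing, so the array is named by its label throughout. Sex-linked RNA also differed: Xist, which silences 1 X chromosome in female cells, read 55.7 on the null-labelled array, against 5461 on control, and the Y-linked Eif2s3y read 2164 on the null-labelled array, against 4.2 on control. Whether the sex of the mice played a part in any ratio below was not tested and cannot be told apart from the label. Basal keratinocyte markers were present on both arrays, with Krt14 at 36849 on the null-labelled array, against 32905 on control, and Krt5 at 32220 on the null-labelled array, against 26821 on control. Krt15, another basal keratin, and Krt1, a keratin of the spinous layer, were below the floor of 67.7 on both. The floor is the median signal of all probe sets other than controls over both arrays, and lower values were raised to it before log2 was taken.

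Across the envelope genes, lower signals on the null-labelled array outnumbered higher ones, by modest amounts. A gene was counted as measured where its brightest probe set reached the floor on either array, which held for 38 of the 40 genes. The 2 genes below the floor on both arrays were Sprr3 and Lce1l. Of the 38, 24 had a log2 ratio (MED1-null minus control) below 0, 13 had one above 0, and Hrnr had a ratio of 0 because its control signal lay at the floor. Of all 11621 measured genes 42.9% had a ratio below 0, as did 47.5% of those with a mean signal of 1000 or more, and 57.1% had one above 0. At least 1.5-fold lower were 13 of the 38 member genes (34.2%), where 7.32% of all 11621 measured genes were that much lower. At least 1.5-fold higher were 5 members (13.2%), where the share among all measured genes was 7.8%. That order turned round with lower floors, as 12.5% of members were at least 1.5-fold higher with the floor at 18.1 and with no floor, against 15.6% and 20.3% of all genes. Past 2-fold, 2 members were lower (5.26%, against 2.23% of all measured genes) and 0 were higher (against 1.63%). The median log2 ratio was -0.31 over the measured members and 0.06 over all measured genes, the middle 90% of which lay between -0.71 and 0.71. Among the 24 members with a mean signal of 1000 or more, 18 read lower and 10 were at least 1.5-fold lower (41.7%), against 6.73% of the 4190 genes in that range of signal, while 2 were at least 1.5-fold higher (8.33%), against 3.03% of those genes. The log2 ratios of different probe sets for the same gene had a pooled SD of 0.31, or 1.24-fold, over 4916 genes. That spread covers differences between probe sets only, not between mice or cultures.

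**Figure D1:**
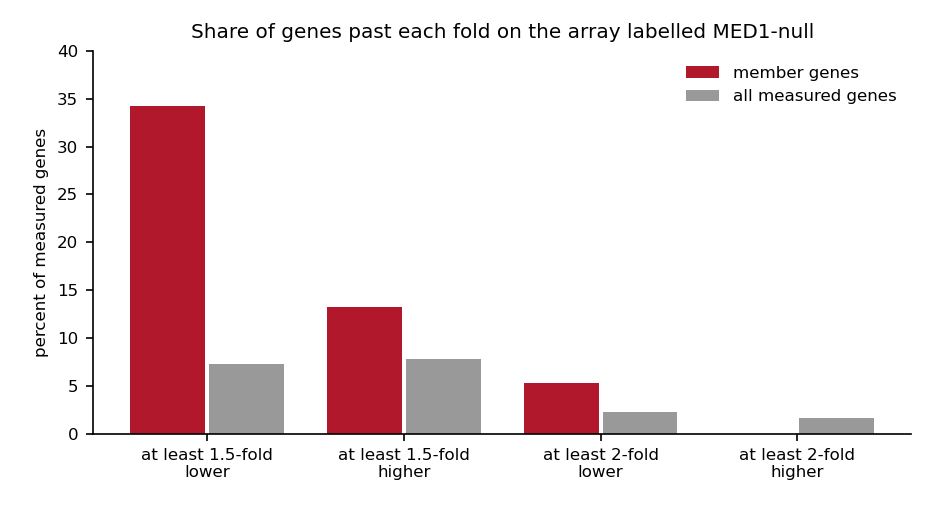
Percent of measured genes (y axis) that were at least 1.5-fold or 2-fold lower or higher on the null-labelled array, for the 38 member genes (red bars) and all 11621 measured genes (grey bars). The widest gap is in the share at least 1.5-fold lower, at 34.2% of members and 7.32% of all measured genes.

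**Figure D2:**
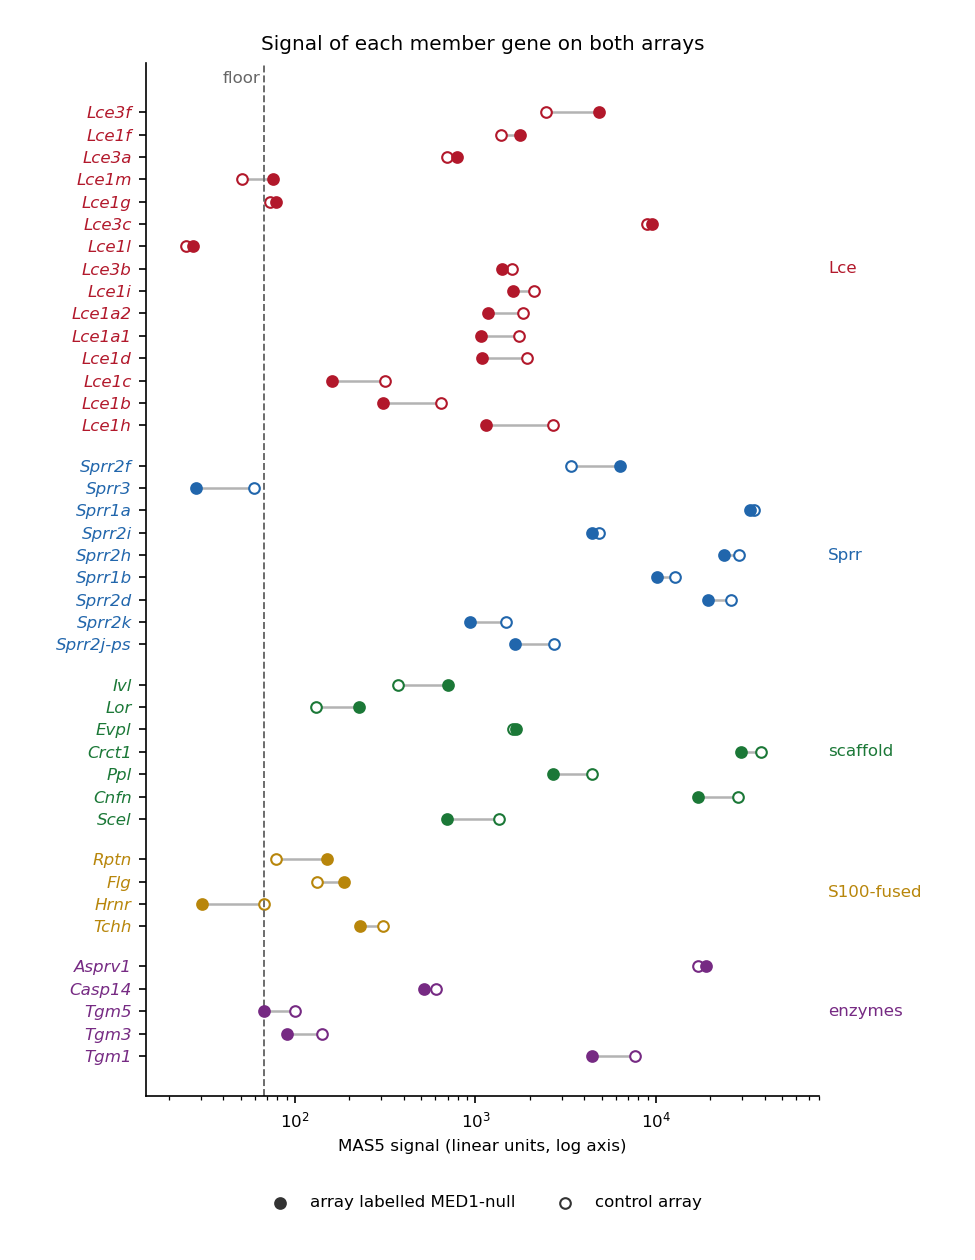
MAS5 signal (x axis, log scale) of each of the 40 member genes by its brightest probe set, on the null-labelled array (filled points) and the control array (open points), in 5 classes. The dashed line is the floor of 67.7. Signals of different genes come from different probes and are not set against each other. Within the Lce class, Lce3f stands at the top with the filled point on the right and Lce1h at the bottom with the filled point on the left.

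The Lce genes divided by family, a split that was made after the values were seen. Genes of the Lce1 family, which encode late envelope proteins of the outer epidermis, mostly read lower on the null-labelled array, and those of the Lce3 family did not. Of 10 measured Lce1 genes 7 read lower and 3 higher, with a median log2 ratio of -0.68. Of 4 Lce3 genes 1 read lower and 3 higher, with a median of 0.14. Among all measured genes 42.9% read lower and 57.1% higher, and the Lce3 count is too small to set apart from that. Both medians kept their sign under 3 rescalings, by the median ratio, quantile normalization and a lowess fit. The difference between the families could not be tested on 1 array per group.

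Lce1h read 1140 on the null-labelled array, against 2675 on control, a log2 ratio of -1.23 and 2.35-fold lower. Lce1b read 307.4 on the null-labelled array, against 644.6 on control (2.10-fold lower). Lce1h and Lce1b were the members past 2-fold. Just inside that threshold, Lce1c read 160.6 on the null-labelled array, against 314.4 on control (1.96-fold lower). Lce1d read 1088 on the null-labelled array, against 1938 on control (1.78-fold lower), and Lce1a2 read 1172 on the null-labelled array, against 1843 on control (1.57-fold lower). Each of these 5 genes gave the lower signal on the null-labelled array. For Lce1a1, a probe set shared with similar genes read 1069 on the null-labelled array, against 1743 on control (1.63-fold lower), and the other, with no mark of shared sequence, read 714.9 on the null-labelled array, against 1573 on control, a log2 ratio of -1.14. Lce1i read 1617 on the null-labelled array, against 2106 on control (1.30-fold lower). On the other side, Lce1f read 1765 on the null-labelled array, against 1387 on control (1.27-fold higher), and its second probe set also read higher, at 121.3 on the null-labelled array, against 107.3 on control. Lce1g and Lce1m lay near the floor, Lce1g at 78.2 on the null-labelled array, against 72.7 on control, with a log2 ratio of 0.11 that became -0.04 under quantile normalization. Lce1m read 75.8 on the null-labelled array, against 50.6 on control, and was at least 1.12-fold higher.

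In the Lce3 family, whose human counterparts are known for induction after barrier injury, Lce3f had the largest log2 ratio on the higher side when the brightest probe set stood for each gene. With the median over probe sets, Ivl lay above it at 0.99. Lce3f read 4806 on the null-labelled array, against 2457 on control, a log2 ratio of 0.97 and 1.96-fold higher. It lay just short of 2-fold and passed it under quantile normalization, with a log2 ratio of 1.01. Lce3c read 9533 on the null-labelled array, against 8945 on control, Lce3a 794.4 on the null-labelled array, against 694.5 on control, and Lce3b 1401 on the null-labelled array, against 1602 on control. The signals of Lce3c, Lce3a and Lce3b differed by at most 1.14-fold between the arrays, which is less than the spread between probe sets of the same gene.

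The Lce genes are near-copies of each other, so a probe set may pick up RNA of several of them. The probe sets used for Lce1h, Lce1d, Lce1a1, Lce1i, Lce1m, Lce3b and Lce3c carry a suffix by which the manufacturer marks shared sequence. Over the 6 measured Lce1 genes with a probe set free of such a suffix, 4 read lower and 2 higher, with a median log2 ratio of -0.81.

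The DNA before the Lce genes shows how the families differ in sequence. For 35 of the 40 member genes, the 250 bases upstream of the annotated start were taken from RefSeq (GRCm38.p6), where Tgm1 has 2 starts. Lce1 promoters shared a median of 65.4% identical positions over 45 pairs, from 50.5% to 85.6%, and Lce3 promoters 58.3% over 6 pairs. Pairs of an Lce1 and an Lce3 promoter shared 52.1%, near the 49.0% of pairs of members outside the Lce1, Lce3 and Sprr2 families. The promoters of the Lce genes with the lowest and the highest ratios are shown here. Capitals mark the run ACTGTCTCAC, found by a search for the 10 letters present in most Lce1 promoters, and the letters ATAAAA on the gene's strand.
Lce1h (chr3:92765066-92765315, minus strand): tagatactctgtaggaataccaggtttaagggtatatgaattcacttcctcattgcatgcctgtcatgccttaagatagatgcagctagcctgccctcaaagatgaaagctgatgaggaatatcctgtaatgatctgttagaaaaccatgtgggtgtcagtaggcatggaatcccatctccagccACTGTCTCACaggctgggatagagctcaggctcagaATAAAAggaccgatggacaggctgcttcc
Lce1b (chr3:92656927-92657176, minus strand): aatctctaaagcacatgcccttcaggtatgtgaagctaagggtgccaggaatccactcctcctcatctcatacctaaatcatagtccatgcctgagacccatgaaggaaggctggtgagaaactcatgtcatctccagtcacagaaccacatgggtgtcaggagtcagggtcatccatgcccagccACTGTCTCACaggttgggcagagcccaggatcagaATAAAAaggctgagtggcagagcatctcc
Lce3f (chr3:92991967-92992216, plus strand): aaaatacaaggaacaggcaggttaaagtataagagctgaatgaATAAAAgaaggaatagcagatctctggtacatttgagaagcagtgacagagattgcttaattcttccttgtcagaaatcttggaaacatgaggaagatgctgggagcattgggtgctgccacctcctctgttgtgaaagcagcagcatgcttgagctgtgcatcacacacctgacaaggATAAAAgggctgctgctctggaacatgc
The run ACTGTCTCAC on the gene's strand began 64 or 65 bases before the start in 7 of 10 Lce1 promoters, those of Lce1a1, Lce1a2, Lce1b, Lce1d, Lce1g, Lce1h and Lce1i. Because the run was picked as the one in most Lce1 promoters, its count there follows from that choice. It was in 0 of 4 Lce3 promoters and 0.0974% of all 32851 promoters searched, the member promoters included. ATAAAA was in 9 of 10 Lce1 and 4 of 4 Lce3 promoters, beginning 28 or 29 bases before the start in the 9 Lce1 promoters, against 10.2% of all promoters. Over measured members with a promoter, the longer run was found before 6 of 21 genes that read lower and 1 of 11 that read higher. Every member promoter with the run is an Lce1 promoter, and Lce1 was set apart after its ratios were seen. This split therefore restates that most Lce1 genes read lower. The 1 that read higher was Lce1g, near the floor at 78.2 on the null-labelled array, against 72.7 on control, so its direction is uncertain. Of those that read lower, Lce1h, Lce1d, Lce1a1 and Lce1i were read by probe sets marked as sharing sequence, so they may report some of the same RNA. Lce1f, which read higher on both its probe sets, was not among the genes with a promoter here. Whether the run bears on the ratios was not tested. The run ACTGTCTCAC was not found before Lce1c, which was 1.96-fold lower.

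The Sprr genes, which encode proline-rich envelope cross-bridging proteins, read lower on the null-labelled array in 7 of 8 measured cases, by small amounts. Their median log2 ratio was -0.31, and 42.9% of all measured genes read lower. Sprr2h read 23707 on the null-labelled array, against 28996 on control (1.22-fold lower), and Sprr2d read 19475 on the null-labelled array, against 25905 on control (1.33-fold lower). Sprr1b read 10070 on the null-labelled array, against 12665 on control (1.26-fold lower). Sprr1a read 33217 on the null-labelled array, against 34763 on control, a 1.05-fold difference well within the spread between probe sets. The highest signal of any probe set was 46749 on the null-labelled array and 45825 on the control array. Sprr2k and the pseudogene Sprr2j-ps moved more, with 931.2 on the null-labelled array, against 1484 on control (1.59-fold lower), for Sprr2k and 1665 on the null-labelled array, against 2710 on control (1.63-fold lower), for Sprr2j-ps. Sprr2i read 4411 on the null-labelled array, against 4851 on control. Sprr2f alone among the measured Sprr genes went the other way, with 6328 on the null-labelled array, against 3394 on control, a log2 ratio of 0.90 and 1.86-fold higher. Sprr3 lay below the floor on both arrays. Sprr2 genes are also near-copies, and the probe set of Sprr2h carries a shared-sequence suffix.

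The Sprr promoters held both TATAAA, a form of the TATA box, and TGANTCA, the site of AP-1 transcription factors, more often than promoters at large. TATAAA on the gene's strand was in 8 of 8 Sprr promoters, against 7.59% of all promoters, and TGANTCA on either strand was in 7 of 8, against 6.75%. Neither set Sprr2f apart, as it shared both with Sprr2k, which went the other way. These 2 promoters are shown with the matches to both motifs in capitals. In Sprr2k the TATA box match runs into an overlapping match to the letters ATAAAA, also in capitals.
Sprr2f (chr3:92364937-92365186, plus strand): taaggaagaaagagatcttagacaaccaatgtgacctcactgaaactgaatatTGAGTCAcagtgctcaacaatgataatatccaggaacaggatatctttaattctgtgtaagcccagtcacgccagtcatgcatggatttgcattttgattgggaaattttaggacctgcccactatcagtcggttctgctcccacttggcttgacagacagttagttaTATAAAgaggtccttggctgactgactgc
Sprr2k (chr3:92432332-92432581, plus strand): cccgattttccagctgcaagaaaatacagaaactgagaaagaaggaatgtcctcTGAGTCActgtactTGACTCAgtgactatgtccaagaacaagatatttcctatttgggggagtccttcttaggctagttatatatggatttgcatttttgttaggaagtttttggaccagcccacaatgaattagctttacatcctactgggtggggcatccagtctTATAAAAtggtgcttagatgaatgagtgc
TGANTCA was in 0 of 10 Lce1 and 0 of 4 Lce3 promoters. Over measured members with a promoter, TGANTCA was found before 7 of 21 genes that read lower and 5 of 11 that read higher, and TATAAA before 8 of 21 and 6 of 11. The only TGANTCA match before Sprr1b, which read lower, was TGAATCA. Those before Flg and Rptn, which read higher, were TGAATCA and TGATTCA. Sprr1b, Flg and Rptn are in the counts of TGANTCA though neither TGAGTCA nor TGACTCA was in their windows. The nuclear receptor motif AGGTCA, on either strand, was before 4 of 21 and 4 of 11, and in 8 of 36 member promoters in all (22.2%), against 14.0% of all promoters. The letters CCACCC, bound by KLF factors, were in 10 of 36 member promoters (27.8%), against 28.1% of all, and GGAAGT, bound by ETS factors, in 12 of 36 (33.3%), against 19.7%, both on either strand. A match is letters in a window of 250 bases and no evidence of binding.

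**Figure D3:**
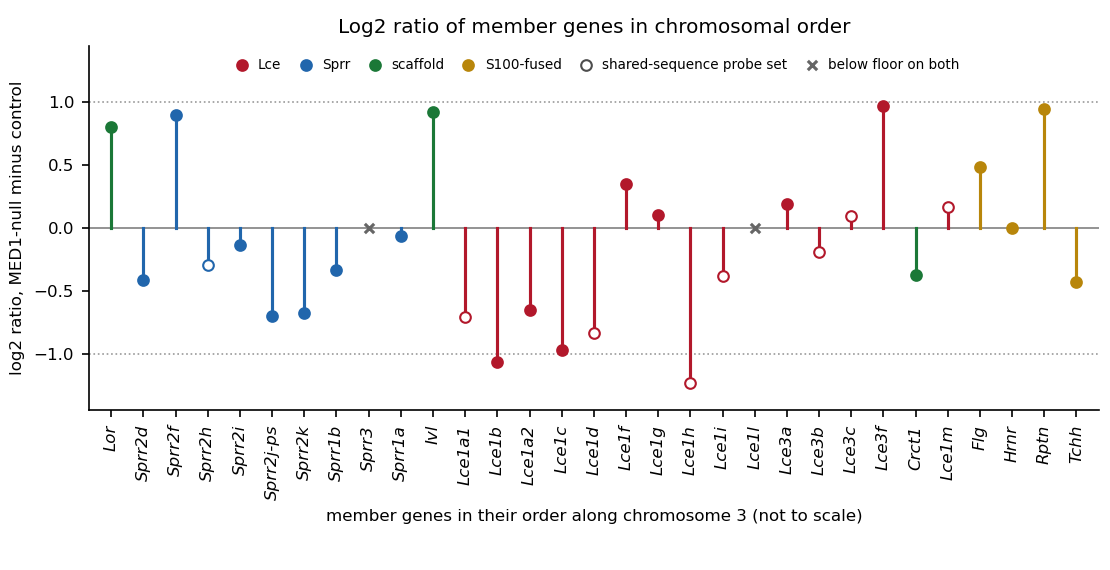
Log2 ratio (y axis, MED1-null minus control) of the 31 member genes on chromosome 3, in their order along it (x axis, evenly spaced). Colours give the class, open points a probe set marked as sharing sequence, crosses the 2 genes below the floor on both arrays, and dotted lines 2-fold. The run from Lce1a1 to Lce1d lies below 0, between -0.65 and -1.07, with genes of the opposite sign on either side.

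Along chromosome 3, in the gene order of RefSeq, 5 neighbouring member genes (Lce1a1, Lce1b, Lce1a2, Lce1c and Lce1d) were each at least 1.5-fold lower on the null-labelled array, while Ivl before them and Lce1f after them read higher. This stretch was picked out by these same values. Its genes are near-copies, and the probe sets used for Lce1a1 and Lce1d are marked as sharing sequence. Such probe sets may report some of the same RNA. Of 29 measured members on chromosome 3, 17 read lower and 8 were at least 1.5-fold lower, with a median log2 ratio of -0.19, and all 5 members at least 1.5-fold higher lay there. Most of the 38 measured members lie on that chromosome, and 7.8% of all measured genes were at least 1.5-fold higher. Of 9 members on other chromosomes 7 read lower and 5 were at least 1.5-fold lower, with a median of -0.64, where 42.9% of all measured genes read lower and 7.32% were at least 1.5-fold lower.

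The scaffold genes went both ways. The early scaffold protein involucrin, Ivl, read 708.5 on the null-labelled array, against 373.8 on control, a log2 ratio of 0.92 and 1.90-fold higher, and its second probe set read 140.1 on the null-labelled array, against 59.7 on control, a log2 ratio of 1.05 taken to the floor. Loricrin, Lor, the main protein of the mature envelope, read 227.3 on the null-labelled array, against 130.4 on control (1.74-fold higher). Of the other 2 Lor probe sets, 1 passed the floor on the null-labelled array alone, with 69.1 on the null-labelled array, against 47.6 on control, and 1 was below it on both arrays, with 66.7 on the null-labelled array, against 12.2 on control. The median log2 ratio over the 2 measured Lor probe sets was 0.42. Ivl and Lor thus read higher on the null-labelled array while several other envelope proteins read lower. Sciellin, Scel, an envelope precursor, read 698.5 on the null-labelled array, against 1353 on control (1.94-fold lower), and its other probe set was below the floor on both arrays. Cornifelin, Cnfn, read 17056 on the null-labelled array, against 28442 on control (1.67-fold lower). The plakin partners differed from each other. Periplakin, Ppl, read 2703 on the null-labelled array, against 4414 on control (1.63-fold lower), while envoplakin, Evpl, which pairs with it, read 1687 on the null-labelled array, against 1615 on control (1.05-fold higher). Crct1 read 29483 on the null-labelled array, against 38219 on control (1.30-fold lower). The promoter of Ivl, whose gene read higher while most Sprr genes with the same motifs read lower, is shown with its TATA box and AP-1 matches in capitals.
Ivl (chr3:92573736-92573985, minus strand): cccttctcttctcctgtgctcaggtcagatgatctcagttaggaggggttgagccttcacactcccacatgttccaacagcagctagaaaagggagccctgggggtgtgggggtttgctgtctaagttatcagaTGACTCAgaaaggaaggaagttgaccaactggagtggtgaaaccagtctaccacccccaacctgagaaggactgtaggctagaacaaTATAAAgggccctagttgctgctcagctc

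The S100-fused genes gave low signals on both arrays. Repetin, Rptn, read 150.9 on the null-labelled array, against 78.3 on control (1.93-fold higher), and its other 2 probe sets were below the floor on both. Filaggrin, Flg, which bundles keratin and yields the skin's natural moisturising factor, read 185.9 on the null-labelled array, against 133.0 on control (1.40-fold higher). Trichohyalin, Tchh, best known from the inner root sheath of the hair follicle, read 229.8 on the null-labelled array, against 309.1 on control (1.35-fold lower). Hornerin, Hrnr, read 30.7 on the null-labelled array, below the floor, against 67.7 on control, at the floor. Lowering the floor to 18.1, the 25th percentile, gave Hrnr a log2 ratio of -1.14. The class median of 0.24 over 4 genes became 0.03 with that floor or with none, and none of the 4 was measured with the floor at the 75th percentile.

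Enzymes of the envelope mostly read lower. Tgm1, the membrane-bound transglutaminase that cross-links envelope proteins, read 4430 on the null-labelled array, against 7698 on control (1.74-fold lower). Tgm3 read 90.8 on the null-labelled array, against 141.1 on control (1.55-fold lower), and Tgm5 read 67.1 on the null-labelled array, below the floor, against 99.5 on control, at least 1.47-fold lower. All 3 transglutaminase genes among the members read lower on the null-labelled array. The second Tgm3 probe set was below the floor on both arrays. The enzymes that process filaggrin moved less. Casp14, a protease that degrades filaggrin, read 519.7 on the null-labelled array, against 600.8 on control (1.16-fold lower), and its second probe set had a log2 ratio of -0.25. Asprv1, the aspartic protease that cuts profilaggrin, read 19038 on the null-labelled array, against 17046 on control (1.12-fold higher). The class median was -0.56 over 5 genes, and -0.21 for a floor set to the 75th percentile, where the low signals of Tgm3 and Tgm5 were not measured. All 5 members with several measured probe sets (Casp14, Ivl, Lce1a1, Lce1f and Lor) had them in the same direction.

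**Figure D4:**
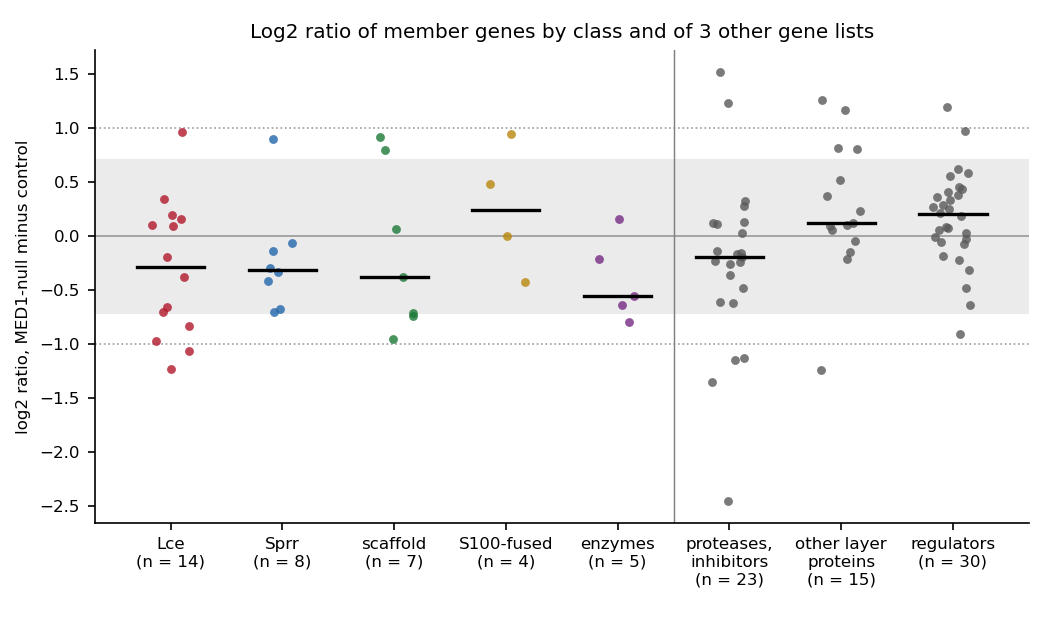
Log2 ratio (y axis, MED1-null minus control) of each measured member gene in 5 classes and, right of the vertical line, of 3 lists of other genes. Each point is a gene, black bars are medians, the grey band holds the middle 90% of all measured genes and dotted lines mark 2-fold. The enzyme class has the lowest median, -0.56, and the S100-fused class the highest of the 5, 0.24. That order depends on the floor: with the floor at the 75th percentile the scaffold median was -0.54 and the enzyme median -0.21.

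Genes that act on the envelope or are made beside it were taken from 3 further lists. Of 23 measured genes for proteases, deiminases and inhibitors, 4 were at least 2-fold lower, against 2.23% of all measured genes, and 2 at least 2-fold higher, against 1.63%, with a median log2 ratio of -0.20. Serpinb3a, a protease inhibitor, read 121.6 on the null-labelled array, against 668.5 on control (5.50-fold lower), and Prss8, the membrane protease prostasin, 1323 on the null-labelled array, against 3385 on control (2.56-fold lower). Klk6, a kallikrein protease, read 5850 on the null-labelled array, against 2034 on control (2.88-fold higher), and Cst6, the cystatin M/E that restrains proteases upstream of transglutaminase 3, 2423 on the null-labelled array, against 1030 on control (2.35-fold higher). The other 2 past 2-fold, named after their values were seen, were Padi3, a deiminase that modifies trichohyalin (at least 2.21-fold lower), and Serpinb8 (2.19-fold lower).

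Of 15 measured proteins of the suprabasal layers and junctions, 11 read higher on the null-labelled array, with a median log2 ratio of 0.12, where 57.1% of all measured genes read higher with a median of 0.06. Calml3, a calmodulin-like protein, read 358.2 on the null-labelled array, against 149.5 on control (2.40-fold higher), and the desmosomal cadherin Dsg1a 227.1 on the null-labelled array, against 101.2 on control (2.24-fold higher). Dsc1, its partner cadherin, read 1372 on the null-labelled array, against 778.7 on control (1.76-fold higher), whereas Cdsn, the corneodesmosin of the outermost junctions, read 4738 on the null-labelled array, against 11198 on control (2.36-fold lower). Of 30 measured regulators of epidermal differentiation, 20 read higher on the null-labelled array, 1 of them past 2-fold, and 0 were at least 2-fold lower, with a median of 0.20. The count of 20 is near the 57.1% of all measured genes that read higher. Past 2-fold, 1.63% of all measured genes were higher and 2.23% lower. Notch1, a receptor that promotes the switch to the spinous layer, read 1779 on the null-labelled array, against 773.8 on control (2.30-fold higher), and the transcription factor Cebpa 1257 on the null-labelled array, against 639.6 on control (1.97-fold higher). Maf read 202.2 on the null-labelled array, against 380.2 on control (1.88-fold lower), and the AP-1 subunit Jund 3107 on the null-labelled array, against 4843 on control (1.56-fold lower). The medians of the 3 lists kept their sign under the 3 rescalings.

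Markers of other cells differed between the arrays too. Among all measured genes, for comparison, 42.9% read lower on the null-labelled array and 57.1% higher. Of 7 measured fibroblast markers 6 read lower on the null-labelled array, the 10 on the array summing to 1513 on the null-labelled array, against 3497 on control, and 3, Col1a1 among them, were below the floor on both arrays. Sparc made up most of that sum, and the other 9 summed to 479.8 on the null-labelled array, against 787.6 on control. Col3a1, Dcn, Thy1 and Twist2 lay near the floor, reaching it on the control array alone, at 72.8 to 120.8. Of 9 melanocyte markers 7 read lower, summing to 20632 on the null-labelled array, against 28536 on control. Basal keratinocyte markers read higher in 6 of 6 measured genes. With Krt15, below the floor, they summed to 133967 on the null-labelled array, against 109803 on control. Spinous markers read higher in 5 of 6, with a median log2 ratio of 0.81. All 6 spinous markers are also among the 15 suprabasal proteins above, and they and Krt1 summed to 41295 on the null-labelled array, against 38227 on control, or without Sbsn to 9135.6 on the null-labelled array, against 5168.5 on control. Of 6 endothelial markers 5, and of 7 immune markers 4, Ptprc among them, were below the floor on both arrays. For sebaceous or follicle markers 4 of 8 were measured, and all 8 summed to 4216 on the null-labelled array, against 4519 on control. For Merkel or neural markers 3 of 5 were measured, and all 5 summed to 5923 on the null-labelled array, against 7930 on control. Krt18 made up most of that sum, and the others summed to 1280.9 on the null-labelled array, against 1393.4 on control. The part of these cells in the envelope genes' ratios was not tested, and fewer cells of a type cannot be told apart from less RNA per cell in such a culture.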

How the data were processed

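RNA of 2 primary keratinocyte cultures was hybridised to 1 Affymetrix array each. The authors deposited linear MAS5 signal intensities, 1 for each probe set, per the submitters' processing notes. The software and its version are otherwise not given in the sources used here. On both arrays the mean was 500.0 once 2% of values at either end were left out. MAS5 subtracts mismatch signal, which makes low values noisy, so lower values were set to a floor of 67.7 ahead of the log2 step. GEO's platform annotation gave 34945 probe sets 1 symbol each. All 40 member genes were found by Entrez ID in RefSeq (GRCm38.p6), used for names, order and promoters. The brightest probe set by mean signal stood for a gene. Ratios are the array labelled MED1-null over control. No test was possible with 1 array per group, and so few arrays limit the precision.

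Members, 5 classes, 3 further lists, 8 marker lists and thresholds were chosen with earlier results of these data known. Values were to be given for members past 2-fold and the 4 brightest of each class, other members by range or in a clause, and up to 4 genes with the ratio farthest from 0 per further list. Calculations used Python 3.11.15, pandas 2.3.3, statsmodels 0.14.6 (lowess) and Biopython 1.88 (global alignment). The counting past 2-fold was tested on simulated data, with larger changes than that in genes well above the floor. That simulation did not cover the 1.5-fold counts or genes near the floor. Alternatives changed the floor, the scaling, the probe set for a gene and the fold threshold.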

Additional observations from a re-analysis of the deposited data

How the results depend on the processing

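No paired analysis was possible because each group has 1 array, and leaving out an array leaves no comparison. The number of members at least 2-fold lower was 2 as reported. It was 4 of 40 (10%) for a floor set to the 25th percentile, against 5.82% of all genes, and 4 of 40 with no floor, against 10.4%, a share no higher than that of all genes. It was 4 of 38 (10.5%) after rescaling by the median ratio or a lowess curve, against 2.61% and 2.77%. Under quantile normalization it was 3 (7.89%), against 2.62%. It was 1 for a floor set to the 75th percentile (434.6), 3.57% against 1.52% of all genes. Over genes with a mean signal of 1000 or more it was also 1, or 4.17% against 2.03%. It was 13 at a threshold of 1.5-fold (34.2%, against 7.32%). The number at least 2-fold higher was 0 as reported, against 1.63% of all genes. It was 1 under quantile normalization (Lce3f), 2.63% against 1.33%, and 5 at 1.5-fold, 13.2% against 7.8%. At 1.5-fold, 9 to 15 members were lower across the alternatives, the 9 without probe sets marked as sharing sequence, where 29 members were measured. That setting also dropped the suffix _a_at, which marks transcripts of the same gene. Tgm1 and Ppl left the count in that way. The number at least 1.5-fold higher was 3 for the 75th percentile floor and 2 over genes with a mean signal of 1000 or more, and 4 or 5 otherwise. At least 1.5-fold lower were 31.0% to 41.7% of members in these settings, against 5.68% to 16.7% of all genes. At least 1.5-fold higher, members were below all genes with the 25th percentile floor (12.5%, against 15.6%) and with no floor (12.5%, against 20.3%), and above them in the other settings. The S100-fused median was 0.03 in those 2 settings. The median over members was between -0.37 and -0.21 in every setting but the one restricted to a mean signal of 1000 or more, where it was -0.38. The enzyme median was -0.21 for the 75th percentile floor and the scaffold median -0.71 over genes with a mean signal of 1000 or more, each with fewer genes measured. The counts over genes with a mean signal of 1000 or more, and those at 1.5-fold under other settings, were added after the data were seen. Of the single genes, Lce1g changed sign (quantile normalization). Signals near the floor, those of the S100-fused genes, Lor, Tgm3 and Tgm5 among them, are the least certain.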
